A study of Mus musculus with 20 samples.

Results

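The replication-dependent histone genes lie in the clusters whose symbols begin with Hist1h, Hist2h, Hist3h or Hist4h, and 69 such symbols were among the 41115 genes of the count tables. Of these, 32 had a count of at least 10 in at least 3 of the 20 libraries and are described here as members. They were 5 H1, 7 H2A, 11 H2B, 5 H3 and 4 H4 genes, 29 of them on mouse chromosome 13, 2 on chromosome 3 and 1 on chromosome 11. The other 37 symbols held 1219 counts in all 20 libraries together, against 25805 counts in the members, and 7 of them had no count in any library. Just inside the rule, Hist1h1b, Hist1h2af and Hist1h2bf reached 10 counts in 3 libraries, with 109, 98 and 97 counts over all libraries. Just outside it, Hist1h2bl and Hist1h3i reached it in 2 libraries, with 66 and 94 counts.

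The libraries were poly-A selected messenger RNA of mouse cells labelled as spleen. Stimulated samples received lipopolysaccharide (LPS), interleukin 4 (IL4) and transforming growth factor beta (TGFb), a cocktail that the design text names for stimulation of AID, the enzyme of antibody class switching, and untreated samples received none. Each arm had 1 library at each of 10 times, 0, 0.25, 0.5, 1, 2, 3, 6, 12, 24 and 48 h, and the design text speaks of 1 treated and 1 untreated mouse. The labels do not state the strain, age or any sorting of the cells. Times therefore stood in for replicates in 3 phases, called early (0.25, 0.5 and 1 h), middle (2, 3 and 6 h) and late (12, 24 and 48 h). P-values measure the spread between times, not between animals. Arm and animal cannot be told apart. No sequencing lane held both arms among the middle or the late libraries, whereas lane 3 held both in the early phase. The treatment effect within a phase could not be fitted with lane and time both as terms, so arm and lane cannot be told apart there. In bulk samples, fewer cells of a type and less RNA per cell cannot be told apart either.

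Replication-dependent histone genes supply the core and linker histones that package newly copied DNA, and their messages are made mainly in S phase. In most cells these messages end in a short stem-loop, bound by the stem-loop binding protein, in place of a poly(A) tail. Poly-A selection therefore keeps only those copies that were polyadenylated, and the counts below measure that fraction and not the whole output of the genes. In human cells, polyadenylated copies of some of these genes are known to build up as cells differentiate. In the GENCODE vM21 annotation of GRCm38, transcripts of 23 of the 32 members held a match to the histone stem-loop, and those of 9 members did not. The annotated transcripts of 5 of these 9 end at the stop codon, and that of Hist1h2af ends 1 base after it. No stem-loop could be found in those transcripts, whether or not the genes have one. Of the members with a match, 12 had an annotated end at least 100 bases beyond it. The stem-loops of the members with the highest level per length that carry it, apart from H2B genes, are shown because they are the ends that a poly(A) tail replaces. Capitals mark the 6-base stem, the 4-base loop and the second strand of the stem, and all run 5′ to 3′ on the strand of the gene.
Hist1h1c, chr13:23739507-23739532, plus strand: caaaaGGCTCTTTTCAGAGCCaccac
Hist3h2a, chr11:58955167-58955192, plus strand: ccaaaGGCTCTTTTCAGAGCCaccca
Hist1h2ae, chr13:23570663-23570688, minus strand: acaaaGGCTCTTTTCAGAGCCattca
Hist1h3c, chr13:23745042-23745067, minus strand: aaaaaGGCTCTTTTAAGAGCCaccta
Hist1h4i, chr13:22040961-22040986, minus strand: ttaaaGGCCCTTTTTAGGGCCaccac

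The stem-loop of Hist1h1c, Hist3h2a and Hist1h2ae was shared by 13 members, and that of Hist1h3c by 5. The annotation carries the transcript on for 840 bases after the stem-loop of Hist1h1c, 1643 bases after that of Hist3h2a, 151 bases after that of Hist1h2ae, 330 bases after that of Hist1h4i and 74 bases after that of Hist1h3c. The polyadenylation signal AATAAA stood within the last 50 bases of the annotated transcripts of Hist1h1c, Hist3h2a and Hist1h2ae. Of the 12 members with at least 100 bases after the stem-loop, only these 3 had it there. Of the 11 symbols outside the members with such an end, 7 had it. The other signal searched, ATTAAA, stood in the last 50 bases of Hist1h4i and Hist1h2be among the 12 members, and in none of the 11 symbols.

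The pair of H2B genes read most had no such match in their annotated transcripts, and their ends are shown for that reason. Hist1h2bc (GRCm38, chr13:23684199-23692908, plus strand) has a first exon of 423 bases that stops 9 bases after the stop codon, an intron of 7554 bases and a second exon of 733 bases. The last 24 bases of its first exon are given with the stop codon in capitals. Hist2h2be (chr3:96221119-96223738, plus strand) has 1 exon with 2192 bases after the stop codon, and AATAAA, in capitals, lies 16 bases before its annotated end.
Hist1h2bc, chr13:23684598-23684621: accagctccaagTGAtcctgccaa
Hist2h2be, chr3:96223707-96223732: tattattattAATAAAgttaccgatt

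Levels per length separated the members by more than their class. Per kilobase of annotated exon, Hist1h2bc averaged 9.49 CPM (read counts brought to 1 library size by TMM scaling) over the 20 libraries, and the next member, Hist1h3c, averaged 2.30 CPM. Hist1h1c followed at 1.41, Hist2h2be at 1.28 and Hist1h4i at 1.27 CPM per kilobase, while Hist3h2a stood at 0.758 and Hist1h2ae at 0.729. The lowest member was Hist1h1d, at 0.0202 CPM per kilobase over an annotated transcript of 7425 bases. For comparison, the replication-independent variant H2afz, whose message is polyadenylated in the ordinary way, stood at 444.6 CPM per kilobase and H3f3b at 227.5. The 11 replication-independent histone genes summed to between 1652 and 2425 CPM in stimulated and between 1599 and 2190 CPM in untreated libraries, so that the cluster genes were a minor part of the polyadenylated histone message throughout.

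**Figure D1:**
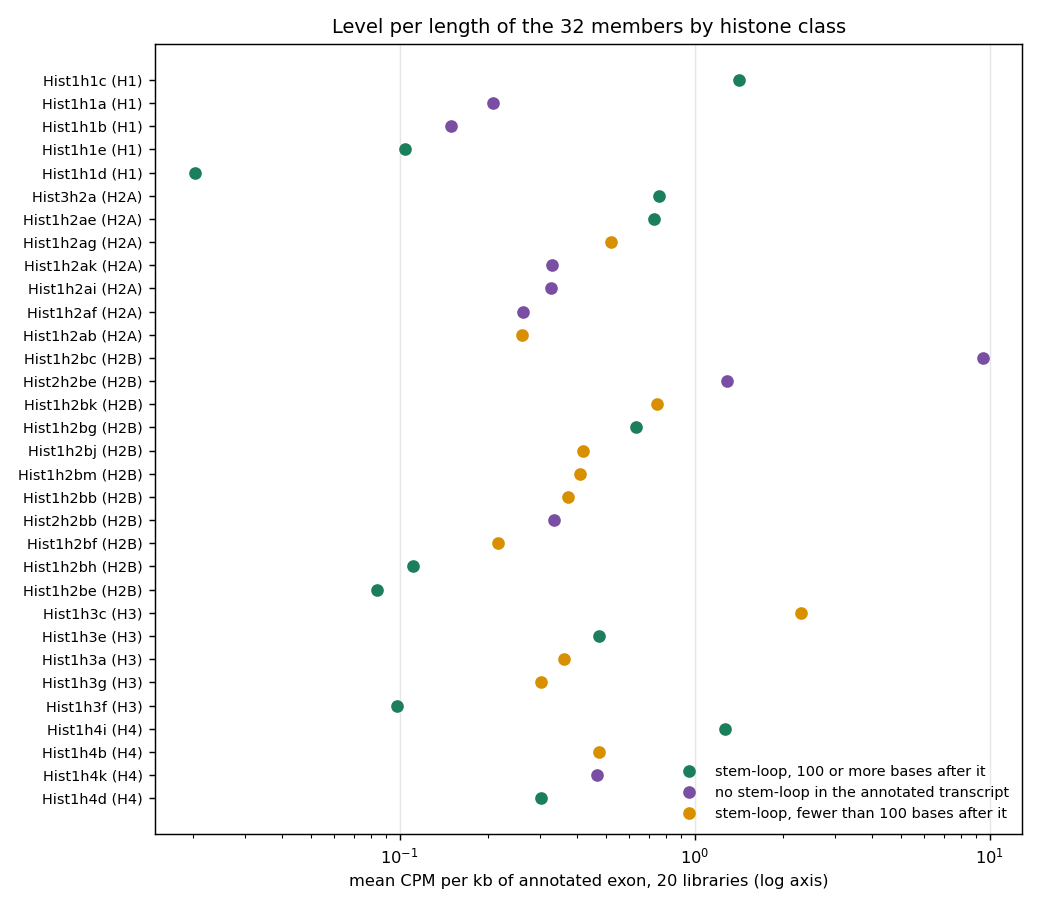
Mean CPM per kilobase of annotated exon over the 20 libraries (log axis) for each of the 32 members, grouped by histone class, with colours for the annotated transcript end. Hist1h2bc, at 9.49 CPM per kilobase, stands to the right of all other members, followed by Hist1h3c at 2.30.

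The counts of single copies are uncertain where sequences are shared. In 13 members, more than 50% of all 50-base words of the annotated exons also occur in other genes, for example 90.1% in Hist1h2ai and 78.9% in Hist1h2ag, against 30.1% in Hist1h2bc, 8.50% in Hist1h1c and 0% in Hist2h2be. The shared words of Hist1h2bc occur in other H2B genes and also in many genes outside the histone clusters, among them Neat1, Tcf4 and Zeb2. The part of such reads in its counts was not tested. Another annotated gene overlapped 11 members, among them Hist1h2be and Hist1h1e, which overlap on the same strand. The sources used here do not say how reads with several matches were counted, or with which strand setting.

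The summed level of the members was highest at 24 and 48 h in both arms. In stimulated libraries the 32 members summed to 21.98, 21.18, 20.46, 20.1, 19.87, 22.14, 22.72, 25.94, 41.92 and 55.79 CPM at the 10 times in order. In untreated libraries the sums were 20.31, 20.58, 20.36, 22.63, 20.42, 23.12, 25.16, 26.29, 34.74 and 35.86 CPM. In stimulated libraries the sum stayed between 19.87 and 22.72 CPM up to 6 h. The 6 h library lay above all earlier ones of its arm in both arms, at 22.72 CPM in stimulated and 25.16 CPM in untreated libraries. Its 95% Poisson interval overlapped that of the 3 h library in each arm. All 69 symbols without the count rule gave the same course, with 44.46 and 58.47 CPM at 24 and 48 h in stimulated libraries and 36.56 and 37.24 CPM in untreated ones, against 21.64 ± 0.733 CPM in the early stimulated and 22.07 ± 1.54 CPM in the early untreated libraries (SD, n = 3 times each). The 37 symbols under the count rule summed to 2.24 ± 0.650 CPM in late against 1.06 ± 0.298 CPM in early stimulated libraries, and to 1.42 ± 0.390 CPM in late against 0.877 ± 0.300 CPM in early untreated ones (SD, n = 3 times each).

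The arms drew apart at 24 and 48 h in the sum of all members, while the sums without Hist1h2bc lay close together at these times. The log2 ratio of the summed members (CPM plus 0.5), stimulated over untreated, was −0.019 (95% counting interval −0.135 to 0.097) at 12 h, 0.268 (0.170 to 0.372) at 24 h and 0.630 (0.555 to 0.721) at 48 h. Without Hist1h2bc it was −0.200, −0.002 and 0.096 at these times, an alternative chosen after the values were seen. These intervals cover counting error only. Within the sum without Hist1h2bc, members differed between the arms in opposite directions, so close sums do not mean equal levels of its members. At 48 h Hist2h2be held 3.76 CPM in the stimulated and 7.42 CPM in the untreated library. At the same time Hist1h1c held 4.37 and 1.51 CPM, and Hist3h2a 3.24 and 1.43 CPM. The share of Hist1h2bc in the members' counts reached 57.58% in the stimulated library at 48 h, against 38.36% in the untreated one. In the libraries up to 6 h it ranged between 36.19% and 43.51% over both arms.

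**Figure D2:**
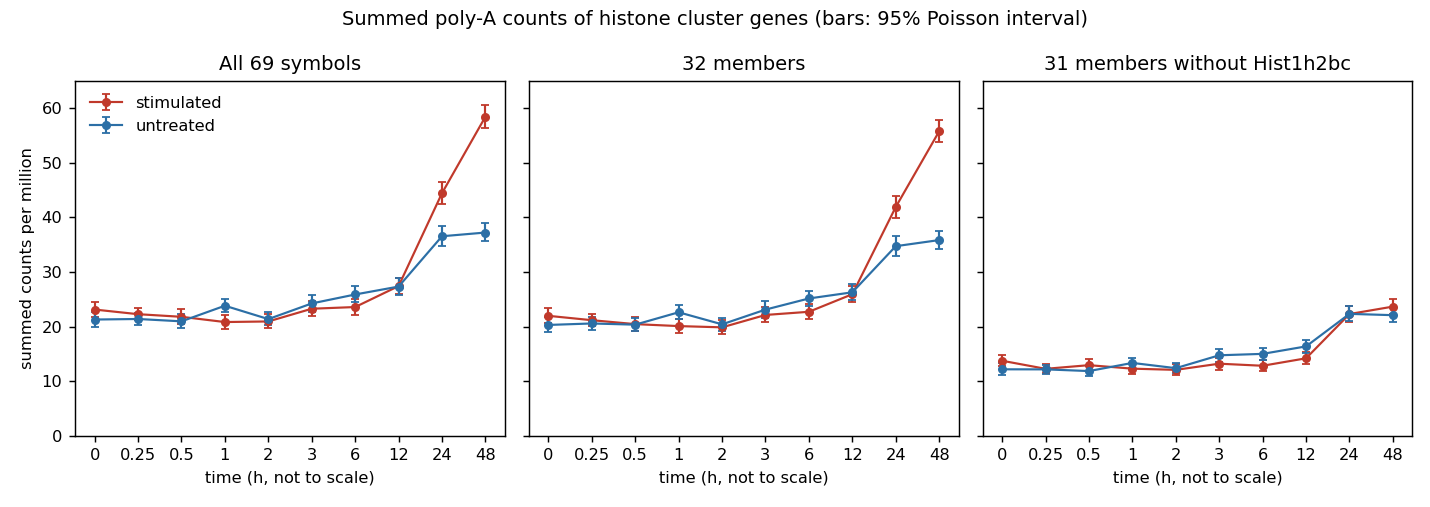
Summed CPM of all 69 symbols, of the 32 members and of the 31 members without Hist1h2bc at the 10 times, stimulated in red and untreated in blue, with bars for the 95% Poisson interval. At 48 h the members reach 55.79 CPM with stimulation and 35.86 CPM without, but 23.67 and 22.1 CPM without Hist1h2bc.

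Within each arm, late libraries were set against early ones in a fit of 8 groups of arm and phase with edgeR's quasi-likelihood test and Benjamini-Hochberg adjustment over all 15966 tested genes (threshold 0.05). In the stimulated arm 9 of the 32 members rose and 0 fell, where 24.2% of all tested genes rose and 20.7% fell. In the untreated arm 10 members rose and 0 fell, where 17.6% of all tested genes rose and 16% fell. Leaving out 1 time in turn gave 4 (without 1 h) to 11 members in the stimulated arm, and in the untreated arm 3 (without 0.25 or 24 h), 4 (without 0.5 h) or 6 (without 12 h) to 7. A member that passed the count rule through its late libraries had to be higher there, so these counts are a description. For 4 members, Hist1h1a, Hist1h2af, Hist1h2bf and Hist1h3f, every library with at least 10 counts was a late one. Of the other 28 members, 8 were called higher in each arm. Without their late libraries, Hist1h1b, Hist1h2ab, Hist1h2ai, Hist1h2ak, Hist1h3g and Hist2h2bb among these 28 would also have failed the count rule. Of these, Hist1h2ak and Hist1h3g were called higher in the stimulated arm. Among the 7 members with a mean of at least 0.5 CPM over all 20 libraries, a split set after the values were seen, 4 rose in the stimulated and 3 in the untreated arm. The median log2 fold change of the 32 members was 0.90 in the stimulated and 0.77 in the untreated arm, beside 0.01 and −0.02 over all tested genes. With library totals as the only scaling these medians of all genes shifted to −0.15 and −0.14. The part of called genes that were higher was then 39.7% in the stimulated and 38.7% in the untreated arm, beside 53.9% and 52.4% with TMM scaling, and 7 members rose in each arm with 0 lower.

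Middle against early libraries gave 0 members higher and 0 lower in either arm by edgeR, and likewise by DESeq2 and limma-voom. At an unadjusted p under 0.05, 3 members passed in the stimulated and 1 in the untreated arm. Over all tested genes, 17.3% rose and 14.6% fell in the stimulated arm, and 9.86% rose and 8.42% fell in the untreated arm. The part of called genes that rose was 54.2% in the stimulated and 53.9% in the untreated arm, and 37.2% and 42.0% with library totals only.

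**Figure D3:**
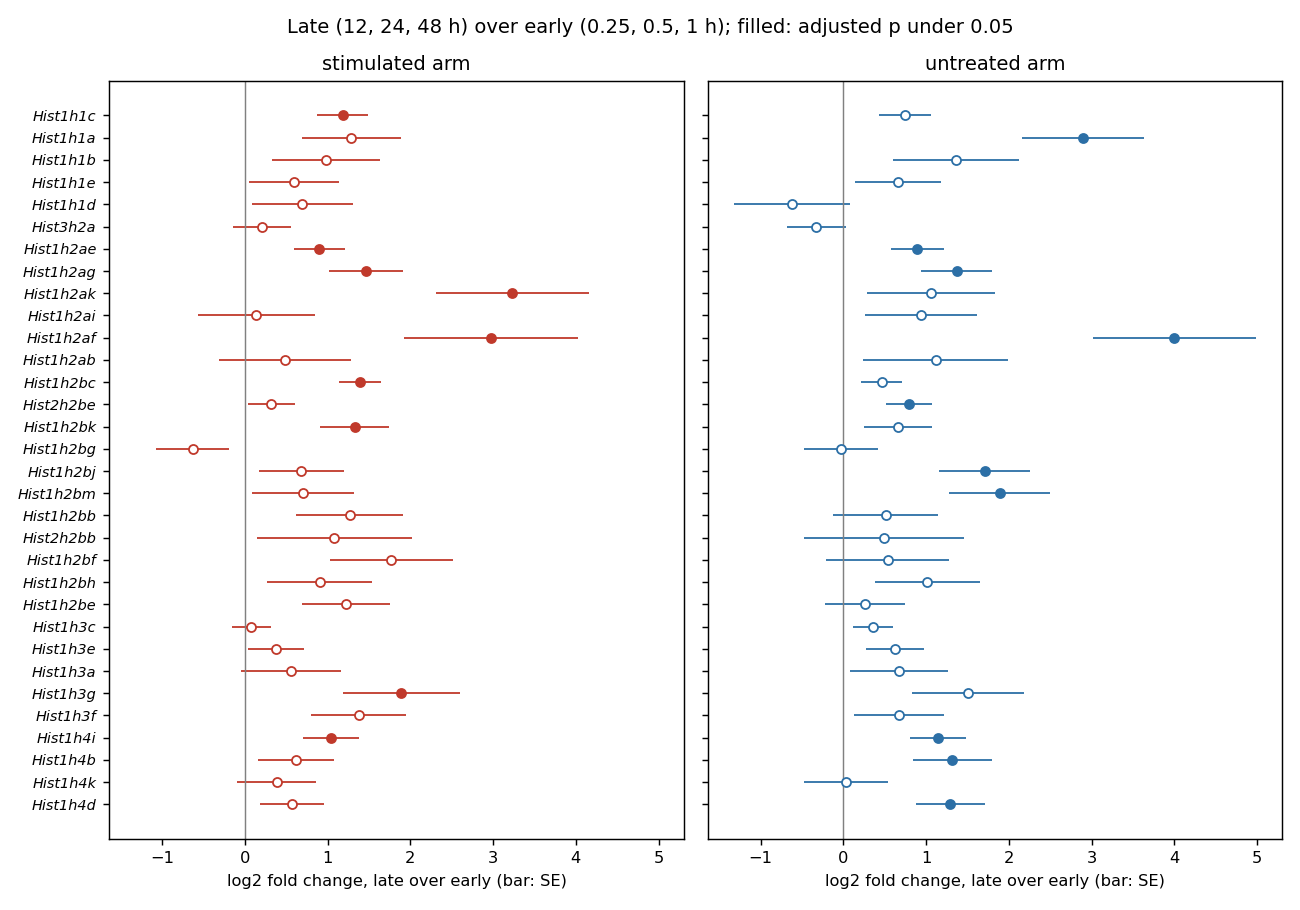
Log2 fold change of late (12, 24, 48 h) over early (0.25, 0.5, 1 h) libraries with its SE for each of the 32 members in the stimulated arm (left) and the untreated arm (right), with filled points for adjusted p under 0.05 (edgeR). Filled points, 9 in the stimulated and 10 in the untreated arm, all lie to the right of 0.

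Treatment was tested within each phase in the 18 libraries after 0 h, with time as a factor. In the early phase edgeR called 0 members higher and 0 lower, where 0.47% of all tested genes were higher and 1.07% lower. In the middle phase it again called 0 and 0, where 7.62% were higher and 7.23% lower. DESeq2 and limma-voom also called 0 in both phases, and at an unadjusted p under 0.05 there were 4 members in the early and 1 in the middle phase. In the late phase 1 member, Hist1h2bc, was higher and 1 member, Hist2h2be, was lower in stimulated libraries, where 16.2% of all tested genes were higher and 13.1% lower. The share of called members was below the background, but most members had few counts. Of the 7 members with a mean of at least 0.5 CPM, 1 was higher, 1 was lower and 5 were not called. Of the other 25 members, 0 were called. The low share of called members therefore cannot be told apart from an effect of low counts. The difference of the treatment effect, late minus early, was called for 1 member with a higher late effect, Hist1h2bc, and for 0 with a lower one, beside 8.23% and 6.46% of all tested genes. Of all called genes, 51.3% were higher in the middle phase, 55.3% in the late phase and 56.0% in the late minus early difference, and 24.7%, 40.5% and 45.8% with library totals only.

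Hist1h2bc encodes a core histone H2B and gave 10898 of the members' 25805 counts. Stimulated libraries held 8.23, 8.91, 7.52, 7.80, 7.79, 8.94, 9.88, 11.74, 19.61 and 32.12 CPM at the 10 times in order. Untreated libraries held 8.13, 8.41, 8.50, 9.28, 8.03, 8.37, 10.15, 9.91, 12.4 and 13.76 CPM. All 3 late stimulated libraries lay above every earlier stimulated one, but the late arms overlapped, since stimulated 12 h lay below untreated 24 and 48 h. Late stimulated libraries averaged 21.16 ± 10.28 CPM and late untreated ones 12.02 ± 1.95 CPM (SD, n = 3 times each), a log2 fold change of 0.72 (SE 0.144, edgeR adjusted p = 0.00226). Within the stimulated arm the late over early change was 1.39 (SE 0.254, edgeR adjusted p = 0.000486). In the untreated arm it was 0.46 (SE 0.251, edgeR adjusted p = 0.165), and the late minus early difference of the treatment effect was 0.84 (SE 0.206, edgeR adjusted p = 0.0163). Without the 48 h pair the late treatment effect was 0.46 (edgeR adjusted p = 0.0197) and the late minus early difference was 0.57 (adjusted p = 0.0366). That difference did not pass without the 0.5 h pair (0.79, edgeR adjusted p = 0.0743), without the 1 h pair (0.75, adjusted p = 0.0804) or without pairing by time (0.93, adjusted p = 0.237). With lane as a term it was 0.90 (edgeR adjusted p = 0.0153).

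Hist2h2be, the other H2B gene with a high level, moved the opposite way between the arms. In mouse olfactory neurons its product is known as an H2B variant made outside S phase. Stimulated libraries held 3.17, 2.19, 2.89, 2.15, 2.37, 2.21, 3.04, 2.98, 2.27 and 3.76 CPM at the 10 times in order. Untreated libraries held 2.35, 3.41, 2.67, 3.48, 2.49, 4.01, 5.19, 4.38, 4.81 and 7.42 CPM. Late stimulated libraries all lay below late untreated ones, at 3.00 ± 0.745 CPM against 5.53 ± 1.65 CPM (SD, n = 3 times each). The log2 fold change was −0.87 (SE 0.194, edgeR adjusted p = 0.00455), and without pairing by time −0.88 (adjusted p = 0.0551). The untreated arm rose late over early by 0.80 on the log2 scale (SE 0.277, edgeR adjusted p = 0.0364), whereas the difference of the treatment effect between the phases was not called (−0.46, SE 0.276, adjusted p = 0.310). The middle phase gave −0.57 (SE 0.199, edgeR adjusted p = 0.0749), and untreated libraries lay above stimulated ones at 3 and 6 h, as they also did at 0.25 and 1 h.

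**Figure D4:**
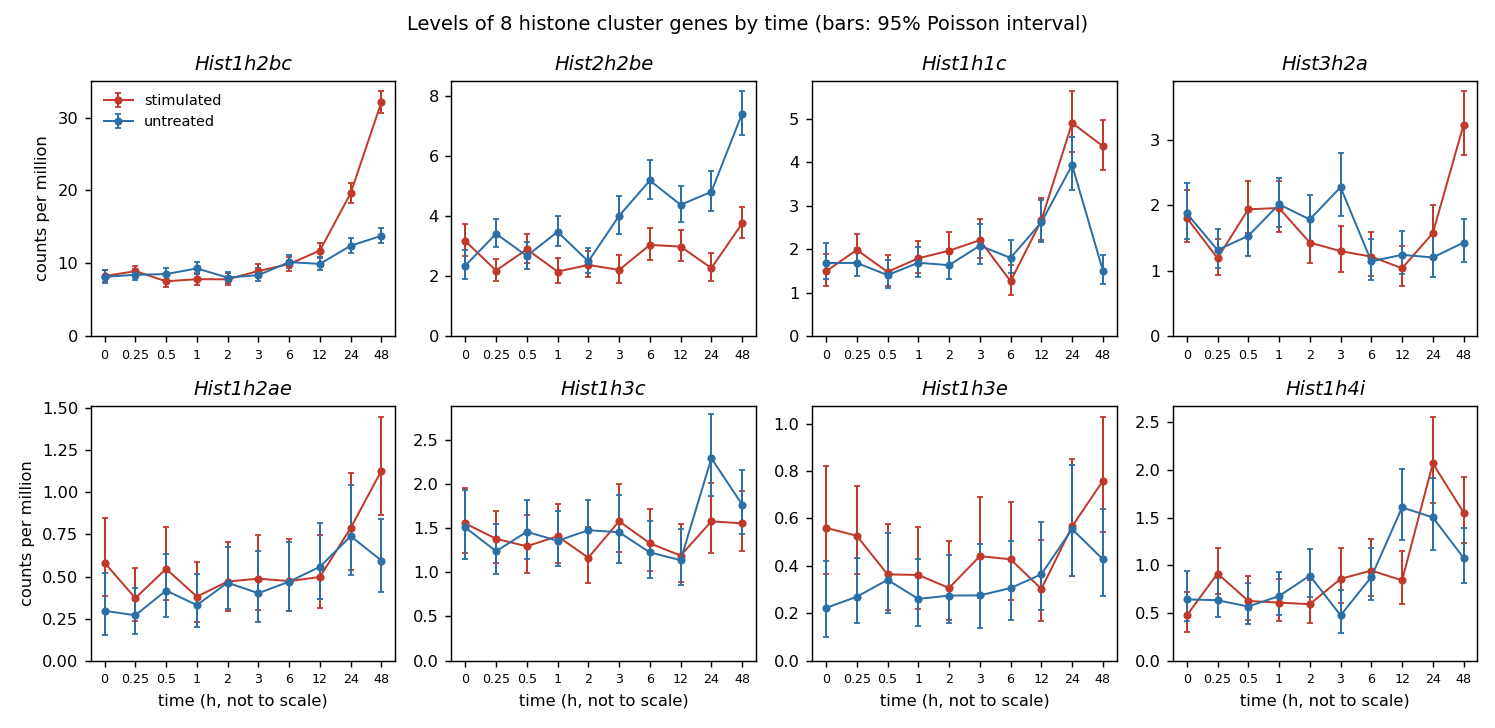
CPM at the 10 times for 8 members, stimulated in red and untreated in blue, with bars for the 95% Poisson interval. At 48 h Hist1h2bc reaches 32.12 CPM in stimulated and 13.76 CPM in untreated cells, and Hist2h2be 3.76 and 7.42 CPM.

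Some markers of cell types also differed between the late arms, where 16.2% of all tested genes were higher and 13.1% lower with stimulation. Summed macrophage and monocyte markers lay between 48.2 and 96.9 CPM in late stimulated libraries and between 25.9 and 38.5 CPM in late untreated ones, with 2 of 4 tested markers higher and 0 lower. The highest of these sums went with Emr1, at 35.6 CPM in stimulated and 1.28 CPM in untreated cells at 48 h, while the monocyte and macrophage markers Lyz2 and Cd14 had at most 0.0758 and 0.0925 CPM in any of the 20 libraries. Dendritic cell markers summed to between 36.1 and 65.3 CPM in late stimulated and between 18.4 and 21.8 CPM in late untreated libraries, with 3 of 5 higher and 0 lower, and B cell markers to between 1481 and 1636 against 1687 and 1886 CPM, with 0 of 7 higher and 3 lower. T cell markers summed to between 45.9 and 73.9 CPM in late stimulated and between 55.7 and 73.1 CPM in late untreated libraries, with 0 of 6 higher and 1 lower. Neutrophil and NK cell markers stayed at or under 0.241 CPM in sum in every library, erythroid markers at or under 2.94 CPM, and 0 of 6 tested erythroid markers were called between the late arms. Plasma cell markers summed to between 965.6 and 1417 CPM in late stimulated and between 1193 and 1396 CPM in late untreated libraries, with 1 of 4 tested markers higher and 3 lower. Markers also moved within the arms, late over early. Of all tested genes, 24.2% rose and 20.7% fell there in the stimulated arm, and 17.6% rose and 16% fell in the untreated arm. Macrophage and monocyte markers, with early sums of 56.0 to 59.7 CPM in stimulated and 57.6 to 61.3 CPM in untreated libraries, had 1 of 4 higher and 2 lower in the stimulated arm and 0 higher and 3 lower in the untreated arm. B cell markers, with early sums of 1877 to 1963 CPM in stimulated and 1840 to 1899 CPM in untreated libraries, had 1 of 7 higher and 4 lower with stimulation and 0 and 2 without. T cell markers, at 58.3 to 66.2 CPM in early stimulated and 57.1 to 61.7 CPM in early untreated libraries, had 0 of 6 higher and 3 lower with stimulation and 1 and 2 without. Dendritic cell markers, at 28.91 to 30.99 CPM in early stimulated and 28.6 to 29.3 CPM in early untreated libraries, had 1 of 5 higher and 1 lower with stimulation and 0 and 1 without. Plasma cell markers, at 1047 to 1302 CPM in early stimulated and 975.0 to 1043 CPM in early untreated libraries, had 0 of 4 higher and 2 lower with stimulation and 1 and 0 without, and of 6 erythroid markers 0 passed with stimulation and 1 was lower without. The part of these markers in the histone differences, between the arms or within them, was not tested.

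Among the H1 genes, which encode linker histones, Hist1h1c led. Stimulated libraries held 1.49, 1.98, 1.48, 1.79, 1.96, 2.21, 1.26, 2.66, 4.90 and 4.37 CPM at the 10 times in order. Untreated libraries held 1.68, 1.68, 1.40, 1.69, 1.63, 2.08, 1.80, 2.62, 3.93 and 1.51 CPM. The arms lay within 1 CPM of each other up to 24 h, and at 48 h the untreated library was back at its early level while the stimulated one was not. Late over early, the stimulated arm changed by 1.18 (SE 0.313, edgeR adjusted p = 0.00616) and the untreated arm by 0.75 (SE 0.314, adjusted p = 0.0746). The late treatment difference was 0.62 on the log2 scale (SE 0.245, edgeR adjusted p = 0.0775). Hist1h1a, the second H1 gene by level per length, met the count rule through late libraries alone, so that its values are a description. It had 10, 26 and 10 counts in stimulated libraries at 12, 24 and 48 h, after 9, 9 and 5 counts at 0.25, 0.5 and 1 h. In untreated libraries it had 12, 7 and 15 counts late and 0, 3 and 2 counts early. It is among the members called higher late over early in the untreated arm and not among those of the stimulated arm. The late minus early difference of the treatment effect on Hist1h1a was −1.81 (SE 1.01, edgeR adjusted p = 0.273), and the remaining H1 members, Hist1h1b, Hist1h1d and Hist1h1e, passed in no comparison.

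Among the H2A genes the highest, Hist3h2a, did not pass in any comparison. Stimulated libraries held 1.81, 1.19, 1.94, 1.96, 1.43, 1.30, 1.22, 1.04, 1.58 and 3.24 CPM at the 10 times in order. Untreated libraries held 1.88, 1.32, 1.53, 2.02, 1.79, 2.28, 1.14, 1.24, 1.2 and 1.43 CPM. Only the stimulated 48 h library stood apart, and the late treatment difference was 0.49 (SE 0.264, edgeR adjusted p = 0.188). Hist1h2ae held 0.582, 0.372, 0.546, 0.381, 0.470, 0.487, 0.473, 0.497, 0.788 and 1.13 CPM in stimulated libraries. It held 0.297, 0.270, 0.417, 0.330, 0.463, 0.401, 0.470, 0.558, 0.740 and 0.595 CPM in untreated ones. It rose late over early in both arms, by 0.90 (SE 0.309, edgeR adjusted p = 0.0256) in the stimulated and 0.90 (SE 0.316, adjusted p = 0.0390) in the untreated arm. Hist1h2ag also rose in both arms, with 12, 14 and 22 counts late and 7, 10 and 3 early in stimulated libraries, and 15, 21 and 22 counts late and 10, 6 and 11 early in untreated ones. Hist1h2af, called higher in both arms, met the count rule through 3 late libraries alone and is given as a description, with 4, 13 and 5 counts late and 0, 3 and 0 early in stimulated libraries, and 4, 22 and 19 late and 1, 1 and 1 early in untreated ones. Hist1h2ak was called higher in the stimulated arm (edgeR adjusted p = 0.00976), with 5, 10 and 21 counts late and 0, 0 and 4 early, and had 7, 11 and 10 counts late and 2, 2 and 12 early in untreated libraries. It reached 10 counts in 5 libraries, 4 of them late. Without the late ones it would not have met the count rule, so this too is a description.

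Of the 9 H2B members besides Hist1h2bc and Hist2h2be, Hist1h2bk rose in the stimulated arm by 1.33 (SE 0.418, edgeR adjusted p = 0.0165), with 25, 21 and 33 counts late and 17, 12 and 8 early. Untreated libraries held 13, 21 and 37 counts of Hist1h2bk late and 17, 16 and 20 early, which was not called. Its treatment effect was not called in any phase. In the untreated arm Hist1h2bj rose by 1.71 (SE 0.550, edgeR adjusted p = 0.0254) and Hist1h2bm by 1.89 (SE 0.609, adjusted p = 0.0259). Neither showed a difference of the treatment effect between the phases that passed, at −0.99 (SE 0.769, edgeR adjusted p = 0.449) and −1.32 (SE 0.896, adjusted p = 0.380). Summed over all 11 H2B members, late libraries held 27.06 ± 11.39 CPM in the stimulated and 20.52 ± 4.39 CPM in the untreated arm, and early ones 12.17 ± 0.508 and 13.75 ± 0.710 CPM (SD, n = 3 times each).

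Of the 5 H3 genes, 1 passed in any comparison. Hist1h3c held 1.55, 1.38, 1.29, 1.41, 1.17, 1.58, 1.33, 1.19, 1.58 and 1.55 CPM in stimulated libraries at the 10 times in order. It held 1.51, 1.24, 1.46, 1.36, 1.48, 1.45, 1.23, 1.14, 2.29 and 1.77 CPM in untreated ones, and early and late libraries overlapped in both arms. Its late over early change was 0.08 (SE 0.240, edgeR adjusted p = 0.807) in the stimulated and 0.36 (SE 0.239, adjusted p = 0.257) in the untreated arm. Hist1h3e held 0.560, 0.527, 0.364, 0.362, 0.307, 0.441, 0.428, 0.303, 0.567 and 0.759 CPM in stimulated libraries. It held 0.222, 0.270, 0.341, 0.261, 0.275, 0.276, 0.306, 0.365, 0.555 and 0.428 CPM in untreated ones and passed in no comparison. Hist1h3g was called higher in the stimulated arm (edgeR adjusted p = 0.0389), with 9, 6 and 24 counts late and 8, 2 and 2 early, and had 9, 17 and 14 counts late and 5, 1 and 11 early in untreated libraries (adjusted p = 0.0939). It reached 10 counts in 5 libraries, 3 of them late. Without the late ones it would not have met the count rule, so its values are a description. Summed over the 5 H3 members, late libraries held 2.66 ± 0.511 CPM in the stimulated and 2.91 ± 0.911 CPM in the untreated arm, and early ones 2.07 ± 0.199 and 2.02 ± 0.157 CPM (SD, n = 3 times each).

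Among the H4 genes Hist1h4i rose in both arms. Stimulated libraries held 0.474, 0.914, 0.627, 0.609, 0.593, 0.859, 0.946, 0.843, 2.07 and 1.55 CPM at the 10 times in order. Untreated libraries held 0.643, 0.635, 0.568, 0.678, 0.892, 0.476, 0.878, 1.61, 1.5 and 1.08 CPM. Late untreated libraries all lay above the other untreated ones, whereas the stimulated 12 h library still lay among the early ones. The late over early change was 1.04 (SE 0.335, edgeR adjusted p = 0.0185) in the stimulated and 1.15 (SE 0.338, adjusted p = 0.0166) in the untreated arm. Hist1h4b held 0.0431, 0.170, 0.222, 0.190, 0.123, 0.255, 0.0450, 0.216, 0.246 and 0.426 CPM in stimulated libraries. It held 0.124, 0.111, 0.152, 0.0869, 0.172, 0.175, 0.143, 0.343, 0.254 and 0.279 CPM in untreated ones. Late over early, Hist1h4b and Hist1h4d rose in the untreated arm, by 1.32 (SE 0.476, edgeR adjusted p = 0.0430) and 1.29 (SE 0.415, adjusted p = 0.0254), and no H4 member showed a treatment difference that passed.

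Of 14 divergent pairs of cluster genes, transcribed away from each other, 3 had no count in either gene, 5 had counts within 2-fold of each other and 6 differed by more, among them 3 by over 10-fold. In those 3 pairs Hist1h2bc had 10898 counts over all libraries and Hist1h2ac, whose start lies 251 bases away on the other strand, had 37. Hist2h2be had 3344 counts and its partner Hist2h2ac 83, and Hist3h2a had 1621 and its partner Hist3h2bb-ps, annotated as a processed pseudogene, 18. In the 3 pairs without a count, Hist1h2ao, Hist1h2ap, Hist1h2bq and Hist1h2br share 88.7% to 97.3% of their 50-base words with other genes. Hist1h2ba shares 38.2% and Hist1h2aa 2.3%, and the part of shared sequence in these zeros was not tested. Hist1h2ae and Hist1h2bg, with starts 176 bases apart, were among the 5 nearer pairs, with 505 and 383 counts. The 175 bases between their starts are shown as the promoter of a pair in which both genes were members (GRCm38.p6, chr13:23571221-23571395, RefSeq, minus strand, toward Hist1h2ae), with capitals for TATAAA, the octamer ATTTGCAT and CCAAT in either direction.
Hist1h2ae and Hist1h2bg: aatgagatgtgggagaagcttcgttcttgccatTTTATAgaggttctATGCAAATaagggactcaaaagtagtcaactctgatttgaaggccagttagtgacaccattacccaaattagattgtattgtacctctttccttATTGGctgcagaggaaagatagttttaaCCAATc

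RefSeq promoters, each from 250 bases before to 50 bases after the start, were matched to 28 members. CCAAT occurred on either strand in 25 of them, beside 37.4% of all 32851 promoters of the table, and TATAAA in 14 of 28, beside 13.6%. The octamer ATTTGCAT, a motif of Oct factors known from H2B promoters, occurred in 8 of 28, 5 of them among the 9 matched H2B members, beside 1.74% of all promoters. The members without a matched promoter were Hist1h2bc, Hist2h2be, Hist1h3a and Hist1h3f, so no motif is given for them. Of 33 matched cluster symbols that were not members, 27 had CCAAT, 21 had TATAAA and 5 had the octamer. A match is a description of the letters in the window.

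The genes that act on histone messages and their promoters were taken from fixed lists. Of 10 transcription regulators, 1 was higher and 2 were lower in late stimulated libraries, where 16.2% of all tested genes were higher and 13.1% lower, and 0 and 3 with library totals only. Pou2f1 encodes the octamer-binding factor Oct-1, and it averaged 107.2 ± 4.90 CPM in late stimulated and 165.6 ± 6.59 CPM in late untreated libraries (SD, n = 3 times each), a log2 fold change of −0.63 (SE 0.062, edgeR adjusted p = 1.06e-05). Its coactivator Pou2af1 was lower by a log2 fold change of −0.31 (edgeR adjusted p = 0.0117) and Yy1 higher by 0.15 (adjusted p = 0.0351). Npat, the coactivator of histone transcription at S phase, did not pass in any comparison, with 98.1 ± 4.94 CPM in late stimulated and 91.7 ± 4.0 CPM in late untreated libraries (SD, n = 3 times each). Late over early, Ccne1, the cyclin E that drives S phase entry, rose in both arms, by 1.18 (edgeR adjusted p = 0.000924) and 0.92 (adjusted p = 0.00781).

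Of 17 genes for end processing and decay of histone messages, 10 rose and 3 fell late over early in the stimulated arm, and 8 rose and 3 fell in the untreated arm. Of all tested genes, 24.2% rose and 20.7% fell late over early in the stimulated arm, and 17.6% rose and 16% fell in the untreated arm, which is also the background of the lists below. Srrt, a partner of the cap-binding complex, rose by 1.23 in the stimulated (edgeR adjusted p = 0.00293) and 1.1 in the untreated arm (adjusted p = 0.00943), and the cap-binding gene Ncbp1 by 1.12 and 0.93 (adjusted p = 0.000107 and 0.00117). Lsm10, a subunit of the U7 particle that cuts histone messages at their stem-loop, fell by 0.82 in the stimulated (edgeR adjusted p = 0.000519) and by 0.53 in the untreated arm (adjusted p = 0.0136). Slbp, the stem-loop binding protein, had its highest values at 3 h, 202 CPM in stimulated and 172.6 CPM in untreated cells, against 86.5 and 99.8 CPM at 48 h. Middle over early it rose in the stimulated arm (0.74, SE 0.190, edgeR adjusted p = 0.00835) and did not pass in the untreated arm (0.55, SE 0.190, adjusted p = 0.0526), and late over early it passed in neither. Of the 17 general polyadenylation genes, 6 rose and 2 fell late over early in the stimulated arm, and 3 rose and 1 fell in the untreated arm. With library totals only, 5 rose and 7 fell in the stimulated and 3 rose and 4 fell in the untreated arm. Papola, a poly(A) polymerase, rose by 0.86 (edgeR adjusted p = 0.000164) and 0.62 (adjusted p = 0.00359), and Rbbp6 fell by 1.06 (adjusted p = 0.000568) and 0.97 (adjusted p = 0.00238).

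Of 39 tested S phase and DNA replication genes, 24 rose and 0 fell middle over early in the stimulated arm and 20 rose and 0 fell in the untreated arm, where 17.3% and 9.86% of all tested genes rose. Late over early, 32 rose and 0 fell in each arm. Relative to the 0 h library of the arm, their summed level stood at 170% in stimulated and 166.7% in untreated cells at 3 h, where the histone members stood at 100.7% and 113.8%. At 48 h it stood at 133.5% and 150.8%, and that of the histone members at 253.8% and 176.6%. Pcna, the sliding clamp of replication, averaged 461.6 ± 59.8 CPM in the middle phase and 240.5 ± 28.0 CPM in the early phase of the stimulated arm (log2 fold change 0.94, SE 0.162, edgeR adjusted p = 0.000767), and 423.3 ± 51.0 and 235.1 ± 16.2 CPM in the untreated arm (0.85, SE 0.162, adjusted p = 0.00389; SD, n = 3 times each). Mcm2, a helicase subunit, rose middle over early by 0.68 (edgeR adjusted p = 0.00362) and 0.67 (adjusted p = 0.00870), and Uhrf1 late over early by 1.26 (adjusted p = 3.56e-05) and 1.13 (adjusted p = 0.000406). Between the arms in the late phase, 4 of the 39 were higher and 6 lower in stimulated libraries, beside 16.2% and 13.1% of all tested genes, and 1 and 16 with library totals only.

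**Figure D5:**
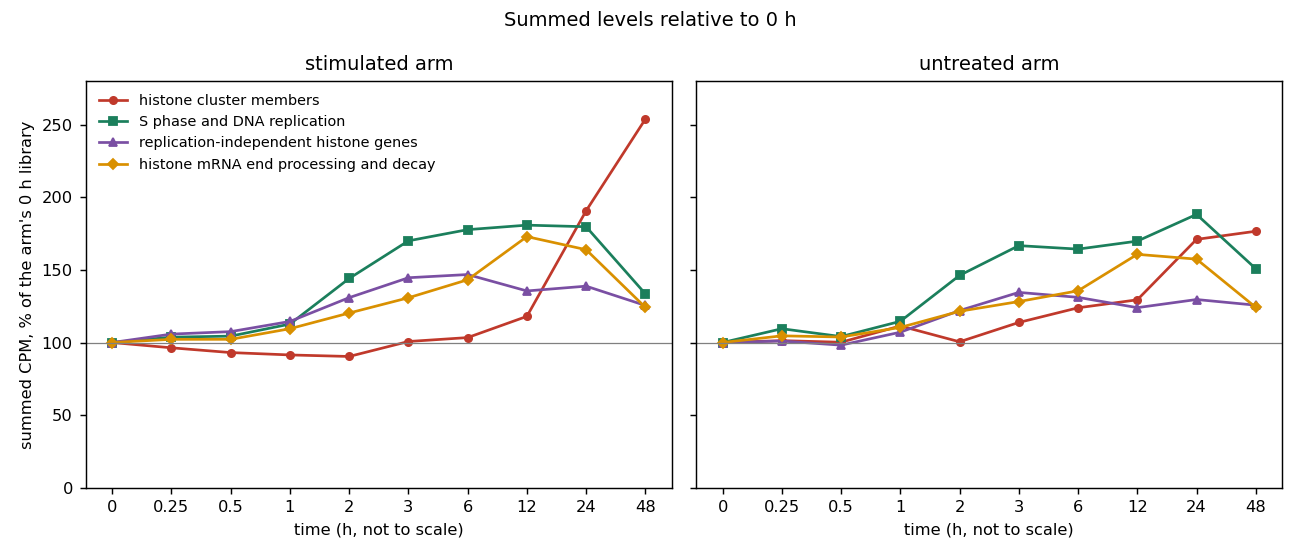
Summed CPM at the 10 times as a percentage of the 0 h library of the same arm, stimulated left and untreated right, for the 32 histone members and 3 gene lists. At 3 h the S phase genes stand at 170% and 166.7% and the histone members at 100.7% and 113.8%; at 48 h they stand at 133.5% and 150.8% and at 253.8% and 176.6%.

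Of 16 mitosis genes, 3 rose middle over early in the stimulated and 1 in the untreated arm, and 13 and 14 rose late over early, with 0 lower in each. With library totals only, 8 and 10 rose late over early and 0 fell. Of 15 histone chaperones, 9 were higher, 1 was lower and 5 were not called late over early in the stimulated arm, and 8, 1 and 6 in the untreated arm. Nasp, a carrier of H1 and H3-H4, rose by 0.94 (edgeR adjusted p = 4.77e-05) and 0.74 (adjusted p = 0.000796), and Supt16, a subunit of the FACT complex, by 0.86 (adjusted p = 7.13e-05) and 0.79 (adjusted p = 0.000529).

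The replication-independent histone genes went in both directions late over early, 4 of 11 higher and 3 lower in each arm, beside 24.2% higher and 20.7% lower of all tested genes in the stimulated and 17.6% and 16% in the untreated arm. With library totals only, 2 were higher and 4 lower in the stimulated arm, and between the arms in the late phase 0 were higher and 1 lower. H2afz, the H2A.Z variant, rose by 0.62 (SE 0.115, edgeR adjusted p = 0.000527) in the stimulated and 0.66 (SE 0.115, adjusted p = 0.000963) in the untreated arm, and Cenpa, the centromeric H3, by 0.61 (adjusted p = 0.000221) and 0.53 (adjusted p = 0.00159). The linker variants fell, unlike Hist1h1c. H1f0, the H1.0 linker found in non-dividing cells, averaged 10.4 ± 7.32 CPM late and 25.7 ± 1.47 CPM early in the stimulated arm (SD, n = 3 times each; log2 fold change −1.30, edgeR adjusted p = 0.0169), and 9.74 ± 4.17 against 21.6 ± 1.39 CPM in the untreated arm (−1.15, adjusted p = 0.0410). H1fx changed by −2.16 (edgeR adjusted p = 0.00211) and −1.89 (adjusted p = 0.00785). The H3.3 genes H3f3a and H3f3b did not pass late over early in either arm. H3f3a was higher in late stimulated libraries by 0.16 (SE 0.047, edgeR adjusted p = 0.0210), at 118.5 ± 5.98 against 106.0 ± 6.90 CPM (SD, n = 3 times each), and H3f3b was not called there (0.07, SE 0.045, adjusted p = 0.268). H2afj was lower in late stimulated libraries, by a log2 fold change of −0.30 (SE 0.086, edgeR adjusted p = 0.0194).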

How the data were processed

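The authors deposited 1 table of raw counts per gene for each of the 20 poly-A libraries, for which the submitters' processing notes name STAR, HTSeq and the builds GRCm38.p3 and mm10. The sources used here give no versions, strand setting or annotation. Library totals ran from 36873155 to 60918651 counts, and 3 counts, the floor, were 0.0465 to 0.0752 CPM, for counting error only. Counts were scaled with TMM, and 15966 genes with at least 10 counts in at least 3 libraries were tested with edgeR 4.0.16 in R 4.3.3 (quasi-likelihood test, Benjamini-Hochberg threshold 0.05). Treatment within phase was fitted in 18 libraries with time as a factor, and change over phases in all 20 libraries with 8 groups. An SE is the log2 fold change divided by the square root of F. Intervals are exact Poisson intervals at 95%, for ratios exact binomial ones. Gene structures and stem-loops came from GENCODE vM21. Alternatives included DESeq2 1.42.0 and limma-voom (limma 3.58.1). Only the late treatment comparison was checked on simulated data, and the fit of 8 groups was not. Members, gene lists and tests were chosen with earlier results of these data known. Values are given at every time for the 2 members of each histone class with the highest level per length, and list genes are among the 4 with the largest change or were named by the rule. Lyz2, Cd14 and Emr1, H2afj and members given by their counts were picked after their values were seen.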

Additional observations from a re-analysis of the deposited data

Results flagged for a closer look

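Hist1h2bc differed between the phases in its response to treatment, with a late minus early difference of 0.836 on the log2 scale (edgeR adjusted p = 0.0163). In 66 checks of the highest or lowest library of an arm, over the 32 members and their sum, 10 had a gap to the nearest library above Dixon's 95% critical value, as a share of the range of the arm. By chance about 1 in 20 groups do, and the 10 libraries of an arm are different times and no replicates. In the stimulated arm the 24 h library stood apart for Hist1h1a (0.640 CPM), Hist1h2bb (0.493 CPM) and Hist1h2bh (0.616 CPM). The 48 h library stood apart there for Hist1h2bc (32.12 CPM), Hist1h2be (0.833 CPM), Hist1h3g (0.444 CPM) and Hist3h2a (3.24 CPM), and the 3 h library for Hist1h1e (0.395 CPM). In the untreated arm the 24 h library stood apart for Hist1h1c (3.93 CPM) and the 48 h library for Hist1h2bf (0.205 CPM).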

How the results depend on the processing

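No direction reversed among the counts of called members and the called members' fold changes under the alternatives run. Of the fold changes of called members refitted there, 216 still passed the threshold and 76 did not. Hist1h2bc stayed higher and Hist2h2be lower in the late phase with RLE factors, library totals, DESeq2, limma-voom and both other count filters. At least 1 CPM in 3 libraries left 6 members to test, of which 3 rose in the stimulated and 2 in the untreated arm late over early. With any gene of at least 1 count, 4 rose in the untreated arm and 1 was called for treatment in the middle phase, as with library totals (1). Without pairing by time, 1 was called for treatment late and 0 late minus early. With 2 h moved to the early and 12 h to the middle phase, 1 was called for treatment in the middle, 4 late and 1 in the stimulated arm middle over early. Leaving out each time in turn gave 0 to 1 members for treatment in the middle phase, 2 to 4 late and 0 to 1 late minus early. For the arms it gave 0 to 2 (stimulated, middle over early), 4 to 11 (stimulated, late over early) and 3 to 7 (untreated, late over early). The stimulated late count fell to 4 without 1 h, and the untreated one to 3 without 0.25 or 24 h, 4 without 0.5 h and 6 without 12 h. The cause was not tested. Treatment within a phase could not be fitted with lane, and with lane as a term 8 members rose late in the stimulated and 10 in the untreated arm. No paired analysis was possible because the labels number no replicates, other than pairs of equal time. Most members had few counts, which limits single copies.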
